A study of Mus musculus with 8 samples.

Results

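E14.5 lens fibers were compared with E14.5 lens epithelium by ATAC-seq, an assay in which the Tn5 transposase inserts sequencing adaptors into accessible DNA, so that reads pile up into peaks where chromatin is open. The comparison used the 2 pooled peak lists of this stage, 1 for each tissue, and left the P0.5 lists for a look at which sites were called again later. A peak was termed private when no peak of the other E14.5 list overlapped it by even 1 bp. On the 21 chromosomes, 61623 of 123686 fiber peaks and 30716 of 99921 epithelium peaks were private, out of 345031 peaks in all 4 lists of the series. Genes were sorted by whether a peak of 1 list only touched the promoter (2 kb to either side of where a transcript starts) or the gene body.

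The study held 8 libraries, 2 for each tissue at E14.5 and P0.5, all from lenses of CD1 mice, an outbred strain, with no mutant allele or treatment named for any group. Both E14.5 groups came from freshly micro-dissected lenses, several lenses were combined for each library, and the dissected cells were not sorted further. The peaks had been called on both libraries of a group together, so a list has no value per library, no difference below has a replicate check, and no test across replicates was possible. The lists hold no reads, so the depth behind a peak is unknown from them, and 95% Wilson intervals cover counting error over peaks only. In dissected tissue, fewer cells of a type and less accessible DNA per cell cannot be told apart.

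The lens is built from a single layer of epithelial cells on its anterior face and a mass of fiber cells behind it. Epithelial cells near the equator leave the cell cycle, elongate, fill with crystallins, assemble a beaded-filament cytoskeleton and gap junctions, and later lose their organelles. Growth factors of the FGF family from the eye chamber promote this step, the transcription factors Pax6, Maf, Sox1, Prox1 and Hsf4 act in it, and Tead proteins are the DNA-binding partners of Yap, the effector of the Hippo pathway, in the proliferating epithelium.

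The highest-ranked private peaks give examples of the DNA that was called in 1 list only. Ranks are positions within a list when its peaks are ordered by fold enrichment, that is by reads at the summit over those of the surroundings, and the ratios themselves were not compared between lists. Each window holds 200 bases around a summit on the plus strand of GRCm38, and capitals mark the core letters bound by Maf factors (TGCTGA, or TCAGCA on the other strand) and by Tead factors (GGAATG, or CATTCC on the other strand). The windows shown are those of the 3 highest-ranked private peaks of each list whose 200 bases touch no exon of a curated or predicted RefSeq transcript, first for fibers. This rule passed over 1 fiber peak, on a predicted exon of Prkag2, and 1 epithelium peak, on an exon of Lpp.
Cap2 intron, chr13:46559989-46560188: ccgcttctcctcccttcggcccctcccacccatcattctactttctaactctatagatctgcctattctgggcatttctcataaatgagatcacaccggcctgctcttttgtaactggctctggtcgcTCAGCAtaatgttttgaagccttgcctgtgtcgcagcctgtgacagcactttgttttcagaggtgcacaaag
Cap2 intron, chr13:46639447-46639646: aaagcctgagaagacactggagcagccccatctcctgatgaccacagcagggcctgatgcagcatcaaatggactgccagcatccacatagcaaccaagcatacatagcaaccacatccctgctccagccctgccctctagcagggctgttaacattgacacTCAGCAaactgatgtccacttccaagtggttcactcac
Gpr160 intron, chr3:30857486-30857685: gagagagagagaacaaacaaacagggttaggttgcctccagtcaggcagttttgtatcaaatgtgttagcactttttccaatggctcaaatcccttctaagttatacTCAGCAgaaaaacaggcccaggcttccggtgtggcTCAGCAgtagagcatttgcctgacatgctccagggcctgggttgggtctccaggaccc

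These 3 windows held a Maf core and no Tead core, with 2 Maf cores in Gpr160 and 1 in each Cap2 window. The first Cap2 peak, 814 bp wide and 58186 bp into the gene, had rank 5948 of the fiber list (the top 4.81%). Cap2 encodes an actin-regulating protein. Its second private peak in the fiber list was 852 bp wide and had rank 6882 (the top 5.56%). The Gpr160 peak, 1636 bp into a gene for an orphan receptor, was 754 bp wide at rank 7375 (the top 5.96%). Chosen by the same rule, the 3 epithelium windows carried the following letters.
Distal to Wnt7a, chr6:91331203-91331402: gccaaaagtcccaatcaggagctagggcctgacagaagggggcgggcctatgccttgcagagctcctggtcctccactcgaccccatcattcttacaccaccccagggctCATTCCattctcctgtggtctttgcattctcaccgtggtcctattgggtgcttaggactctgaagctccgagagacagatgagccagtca
9530036O11Rik intron, chr5:28476514-28476713: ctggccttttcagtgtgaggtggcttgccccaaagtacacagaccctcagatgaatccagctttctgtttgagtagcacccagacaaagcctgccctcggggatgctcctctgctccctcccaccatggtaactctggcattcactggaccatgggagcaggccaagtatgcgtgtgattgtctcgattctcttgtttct
Intergenic, chr3:15098235-15098434: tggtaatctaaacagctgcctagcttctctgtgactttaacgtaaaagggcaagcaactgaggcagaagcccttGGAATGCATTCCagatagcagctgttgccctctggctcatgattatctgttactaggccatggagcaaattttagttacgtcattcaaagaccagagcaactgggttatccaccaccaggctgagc

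No Maf core occurred in these 3 windows, whereas the window distal to Wnt7a held 1 Tead core and the intergenic window 2, which abut on opposite strands. The window in 9530036O11Rik held neither. The peak distal to Wnt7a, a Wnt ligand gene, lay 80050 bp downstream of the start of that gene, beyond its end, and was 375 bp wide at rank 10562 (the top 10.6%) of the epithelium list. Windows at lens genes, taken at the strongest private peak outside exons, were mixed. In fibers Tdrd7 held 2 Maf cores, Bfsp1 1 and Cryba2 none, and no Tead core was found in them. In epithelium Cdh1 held 1 Maf core, Pax6 1 Tead core and Pdgfra neither. As background, 23.1% of the 223607 peak windows of both E14.5 lists and 14.0% of the 200 bp tiles of chromosome 19 held a Maf core. The matching shares for the Tead core were 14.0% and 10.7%.

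Of the 8 gamma crystallin genes, which encode structural proteins of the fiber cell, 6 had promoters touched by peaks of both lists and 2, Crygf and Crygs, by fiber peaks only, as were 2.5% of all promoters of coding genes. Nearer the start the tissues differed at Cryga too, and 2 stretches are shown because they lay wholly under fiber peaks, at 100%, and wholly outside epithelium peaks. They are the 250 bases before the start of Cryga and Crygf (RefSeq, GRCm38, in the direction of transcription).
Cryga, chr1:65103364-65103613, minus strand: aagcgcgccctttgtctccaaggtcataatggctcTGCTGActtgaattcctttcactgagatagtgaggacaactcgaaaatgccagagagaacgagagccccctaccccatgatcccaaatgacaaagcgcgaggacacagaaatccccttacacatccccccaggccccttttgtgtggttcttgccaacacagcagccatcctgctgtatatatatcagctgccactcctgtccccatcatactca
Crygf, chr1:65926272-65926521, plus strand: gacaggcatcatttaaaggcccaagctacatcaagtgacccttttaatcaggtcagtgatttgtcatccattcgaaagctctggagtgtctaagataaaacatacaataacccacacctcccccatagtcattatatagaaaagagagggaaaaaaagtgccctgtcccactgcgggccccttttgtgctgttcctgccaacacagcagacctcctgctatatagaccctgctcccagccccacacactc

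The same stretches of Crygb, Crygc, Crygd and Cryge were also under fiber peaks in full, and epithelium peaks covered 57.6%, 77.2%, 65.2% and 100% of them. That of Crygs was 76% under fiber peaks and 0% under epithelium peaks. The Cryga stretch held 1 Maf core and the Crygf stretch none. Of the 32851 promoter stretches of this length in RefSeq, 16.1% held a Maf core and 12.6% a Tead core. The gamma crystallin genes are close paralogs, and whether reads were shared between copies was not tested.

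Private peaks were weaker than the peaks that both tissues shared, and the fiber list had the larger share of them. They made up 49.8% (95% Wilson interval 49.5 to 50.1) of the fiber list and 30.7% (30.5 to 31.0) of the epithelium list. The median private peak was 217 bp wide in fibers and 153 bp in epithelium, against 475 bp and 303 bp for peaks that overlapped a peak of the other tissue. In fibers 665 private peaks were at least 1 kb wide and 33 at least 2 kb, whereas in epithelium 4 reached 1 kb and 0 reached 2 kb. Together the private fiber peaks covered 17.1 Mb and the private epithelium peaks 5.50 Mb. Of the 62063 overlapped fiber peaks, 6412 overlapped 2 or more epithelium peaks and 110 overlapped 5 or more, up to 13. Of the 69205 overlapped epithelium peaks, 846 overlapped 2 or more fiber peaks, up to 3.

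The strongest sites were common to both tissues. When each list was cut into deciles by rank, 0 of the 9992 strongest epithelium peaks were private, which allows a share of up to 0.0300% at 3 counts (the Wilson interval reaches 0.0384%), and 81 of the 12368 strongest fiber peaks were (0.655%). The private share climbed with every step down, to 66.3% of the weakest decile in epithelium and 87.7% in fibers. Consequently, the median private peak stood at the top 64.1% of the fiber list and at the top 68.5% of the epithelium list, and 66.7% and 74.1% of private peaks had a q value under 0.001, a stricter false discovery rate than the 0.05 of the lists.

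**Figure D1:**
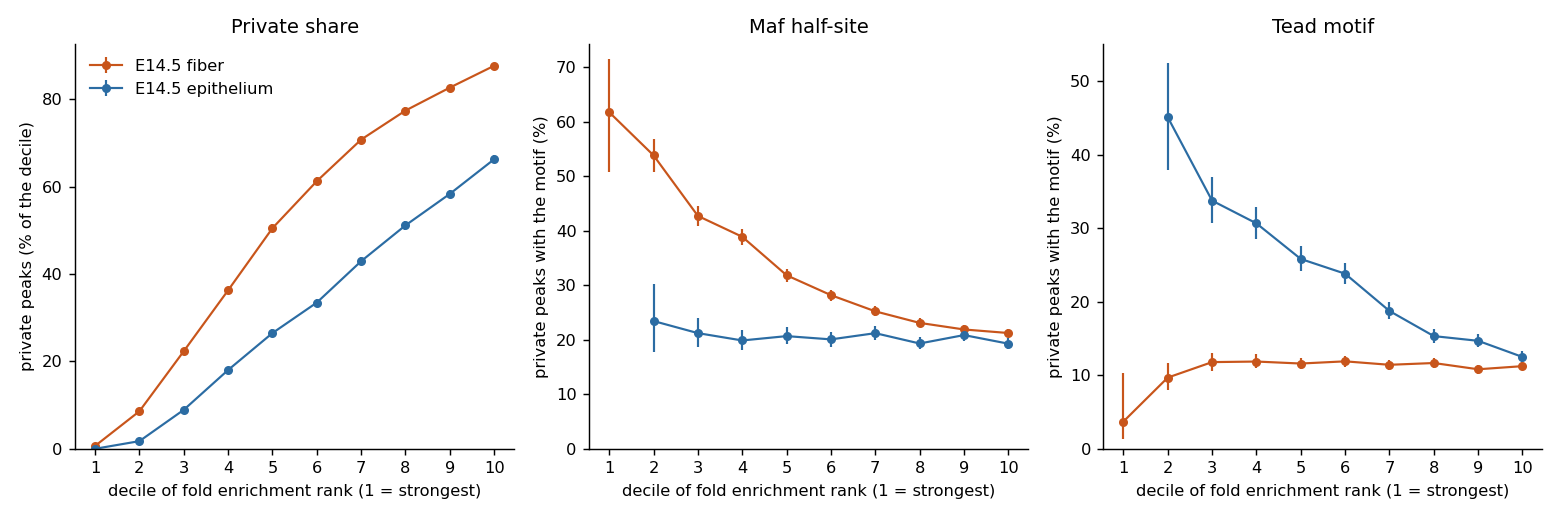
The left plot gives the share of private peaks (%) in each decile of the fiber and epithelium lists, ordered from the strongest by fold enrichment, and the other plots give the share of those private peaks with a Maf or a Tead core in 200 bp at the summit. Bars are 95% Wilson intervals, and the epithelium curves of the motif plots start at the second decile because the first held 0 private peaks. The Maf share of private fiber peaks fell from 61.7% to 21.2% and the Tead share of private epithelium peaks from 45.1% to 12.5%, while the curves of the other tissue stayed lower.

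The Maf core marked the private peaks of fibers and the Tead core those of epithelium, and both did so most in the strongest peaks. Over all private peaks, 27.0% (26.6 to 27.3) of fiber and 20.2% (19.7 to 20.6) of epithelium windows held a Maf core, a ratio of 1.34. Tead cores were in 11.4% (11.2 to 11.7) of fiber and 18.5% (18.1 to 19.0) of epithelium windows, a ratio of 0.617. In the strongest 20% of private peaks, which with ties at the limit came to 14144 in fibers and 7238 in epithelium, the Maf shares were 38.0% in fibers and 20.4% in epithelium, and the Tead shares 11.5% and 28.0%. Among the 81 private fiber peaks of the first decile, 50 held a Maf core (61.7%, 50.8 to 71.6) and 3 a Tead core (3.70%, 1.27 to 10.3). Among the 175 private epithelium peaks of the second decile, 45.1% (38.0 to 52.5) held a Tead core and 23.4% (17.8 to 30.2) a Maf core. Down to the weakest decile, the Maf share of private fiber peaks dropped to 21.2%, near the 19.3% of epithelium, and the Tead share of private epithelium peaks to 12.5%, near the 11.2% of fibers. In peaks that overlapped between the tissues, the ratios of fibers to epithelium were 1.05 for Maf and 0.939 for Tead. These peaks share sites by definition, so their windows hold much the same DNA. Ratios near 1 were therefore largely set in advance and are no control for the private peaks.

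Repeated and extended forms of the cores followed the same order. In the strongest 3 deciles, 12.1% (11.1 to 13.1) of the 3907 private fiber peaks had 2 or more Maf cores, against 1.59% (0.998 to 2.54) of the 1066 private epithelium peaks. At least 2 Tead cores occurred in 8.16% (6.66 to 9.96) of these epithelium peaks and 0.486% (0.312 to 0.758) of these fiber peaks. The Maf core joined to the AP-1 site, TGCTGANTCA, was found in 90 (2.304%) of these fiber peaks and 9 (0.844%) of these epithelium peaks. The AP-1 site TGANTCA shares 3 letters with the Maf core, and it occurred in 7.31% of all private fiber and 6.51% of all private epithelium windows. The Sox core ACAATG was in 12.1% and 10.7%, and in 28.4% (19.7 to 39.0) of the 81 strongest private fiber peaks. In private epithelium peaks it was in 10.3% (6.61 to 15.7) of the second decile and 15.2% (12.9 to 17.7) of the third. Among private peaks called again at P0.5 in the same tissue only, the order of the Sox core turned to 10.3% in fibers and 13.0% in epithelium, and that of the AP-1 site to 6.51% and 6.95%. The cores of AP-2 (GCCNNNGGC, 7.67% against 10.3%), CTCF (AGGGGGC, 3.51% against 4.80%) and Sp1 and KLF factors (GGGCGG, 4.43% against 6.30%) were rarer in private fiber than in private epithelium peaks. In the peaks that overlapped, which share sites by definition, none of these 3 differed by a ratio beyond 1.03. Over all peak windows of both lists, the Sox core was in 11.0%, the AP-1 site in 6.52%, and the cores of AP-2, CTCF and Sp1 in 11.8%, 6.80% and 14.7%. All motifs were searched on both strands, and a match is a run of letters, not a bound site.

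Private fiber peaks lay within genes more often than private epithelium peaks. Gene bodies held 65.2% (64.8 to 65.6) of private fiber peaks and 53.5% (52.9 to 54.0) of private epithelium peaks. Distal sites, within 50 kb of a gene, held 19.0% and 24.7%, and intergenic sites 5.67% (5.49 to 5.85) and 11.3% (10.9 to 11.6). Promoters held 10.1% and 10.6%, far below the 30.0% and 31.1% of the overlapped peaks. The order for gene bodies and intergenic sites was the same under all 5 other ways of calling a peak private, whereas that for promoters turned to 7.48% in fibers and 7.46% in epithelium when no peak of the other list was allowed within 500 bp.

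**Figure D2:**
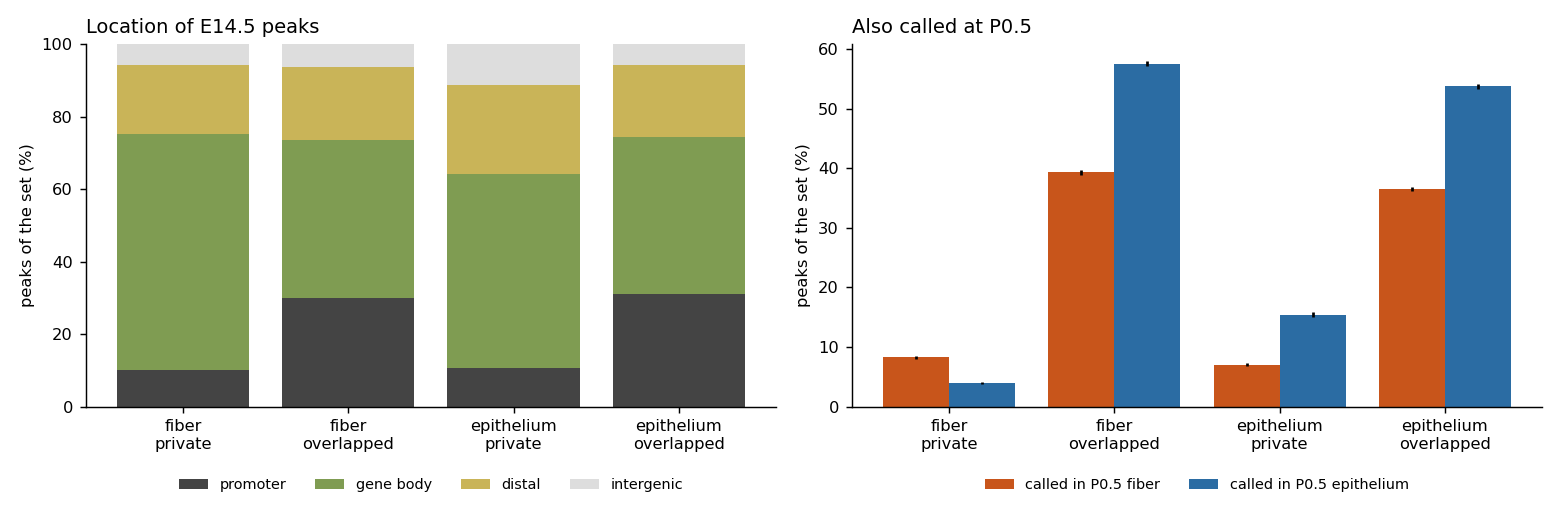
The left plot stacks the percentage of private and overlapped E14.5 peaks in promoters, gene bodies, distal and intergenic sites, with gene bodies at 65.2% of private fiber and 53.5% of private epithelium peaks. The right plot gives the percentage of the same sets that overlapped a peak of the P0.5 fiber or P0.5 epithelium list, with 95% Wilson intervals.

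Most private peaks were not called again at P0.5, whose lists are shorter, with 58502 epithelium and 62922 fiber peaks. In neither P0.5 list were 88.6% of private fiber and 78.7% of private epithelium peaks called, against 35.3% and 38.9% of the overlapped peaks. Private fiber peaks overlapped a P0.5 fiber peak in 8.26% (8.04 to 8.48) of cases and a P0.5 epithelium peak in 3.92% (3.77 to 4.07). Private epithelium peaks were called again in P0.5 epithelium in 15.4% (15.0 to 15.8) of cases and in P0.5 fibers in 7.05% (6.77 to 7.34). Over the whole fiber list, P0.5 fibers shared 23.8% of peaks and P0.5 epithelium 30.8%. Over the whole epithelium list, these shares were 27.5% and 41.9%. The first of these contrasts shrank to 3.89% against 3.65% at a q value under 0.001 in all lists, and to 13.7% against 13.1% when private meant no overlap of 50% of both peaks. The second was 17.6% against 3.08% and 24.8% against 15.98% under these settings. The strongest private peaks were called again more often. Of the 175 private epithelium peaks in the second decile, recurrence was 85.7% in P0.5 epithelium but 6.29% in P0.5 fibers, and of the 81 private fiber peaks in the first decile 49.4% recurred in P0.5 fibers and 3.70% in P0.5 epithelium. The 4377 private epithelium peaks that recurred in P0.5 epithelium alone held a Tead core in 30.0% of windows, against 10.4% of the 4639 private fiber peaks that recurred in P0.5 fibers alone. Maf cores were in 19.4% and 28.7% of them.

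Among the 10 highest-ranked private fiber peaks, 6 lay in the introns of Cap2 (2 peaks), Mtor, Otulin, Ide and Ptpra. Mtor encodes the kinase of the mTOR complexes, Otulin a linear-ubiquitin deubiquitinase, Ide the insulin-degrading enzyme, and Ptpra a receptor tyrosine phosphatase. A peak of 3331 bp at the top 6.60% of the list covered the 3′ part of Cryba2, a beta crystallin gene, and another lay in the promoter of Gpr160. Of the other two, one lay 1377 bp from 2900005J15Rik and one was intergenic, with Gm815 as the nearest gene at 85091 bp. None of the 10 was called in P0.5 epithelium and 5 were called in P0.5 fibers. Of the 10 highest-ranked private epithelium peaks, 5 were in gene bodies, at Lpp, 9530036O11Rik, Zfp618, Aplp2 and St14, and all but the one on chromosome Y were called again in P0.5 epithelium. Lpp encodes a focal adhesion protein, St14 the membrane protease matriptase and Aplp2 an amyloid-precursor-like protein. They were 116 to 612 bp wide, against 497 to 3331 bp for the 10 of fibers.

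The genes with the most private peaks were long in both tissues but differed between them. In fibers they were Ank2 with 177 private peaks, Slit3 with 168, Ctnnd2 with 152, Msi2 with 134, Cdh4 with 130, Cadm1 with 128, Dst with 117, Asap1 with 116, Pde4d with 114 and Prkag2 with 112. Ank2 encodes an ankyrin, Ctnnd2 a delta catenin, Cdh4 a cadherin, Cadm1 an adhesion molecule and Dst the cytolinker dystonin. Each of these 10 genes had 3 to 28 private epithelium peaks. Prkag2, which encodes a subunit of the energy sensor AMPK, had the highest density, with 47.1 private fiber peaks per 100 kb against 1.26 private epithelium peaks, and 31.5% of its body was covered in fibers against 4.37% in epithelium. In epithelium the most were at Trpm3 (55 private peaks), Tenm2 (43), Pdzd2 (38), Zmiz1 (36), Wwox (35), Camk1d (34), Foxp1 (34), Sh3pxd2a (33), Hspg2 (32) and Pknox2 (32). Trpm3 encodes a cation channel and Hspg2 the basement membrane proteoglycan perlecan of the lens capsule. Of these 10, Trpm3, Wwox and Foxp1 held more private fiber peaks (73, 44 and 64) than private epithelium peaks. Hspg2 had the highest density, 31.4 private epithelium peaks per 100 kb against 14.7 private fiber peaks. Over all 21000 coding genes, 49.7% had at least 1 private fiber peak at the promoter or body and 36.1% at least 1 private epithelium peak, and 37.6% had more private fiber than private epithelium peaks and 15.2% the reverse.

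Most coding genes had peaks of both tissues or of neither. Of 21000 coding genes, 525 (2.5%) had a promoter covered in fibers only and 334 (1.59%) in epithelium only, while 14426 (68.7%) were covered in both and 27.2% in neither. Gene bodies were covered in fibers only for 506 genes (2.41%) and in epithelium only for 326 (1.55%). These counts did not keep their order when the lists were cut to equal numbers of their strongest peaks: promoters then numbered 379 for fibers and 418 for epithelium, and gene bodies 383 and 428. Without the first 2 kb of each gene, bodies covered in 1 list only rose in number to 2049 for fibers and 847 for epithelium. At P0.5, 29.1% of the fiber-only promoters were covered in fibers and 19.6% in epithelium, and 28.7% of the epithelium-only promoters were covered in epithelium and 23.7% in fibers. For gene bodies, 36.0% of those covered in fibers only were covered in P0.5 fibers and 21.9% in P0.5 epithelium, whereas of those covered in epithelium only 35.3% were covered in P0.5 fibers and 32.8% in P0.5 epithelium. Of all promoters, 64.6% were covered in P0.5 fibers and 67.0% in P0.5 epithelium.

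Of the 212 genes of the 21 lists, 5 had a promoter covered in 1 E14.5 list only, no larger a share than the 2.5% and 1.59% of all coding genes. They were Crygf, Crygs and Crybb2 and the endothelial gene Pecam1 in fibers, and the endothelial receptor gene Tie1 in epithelium. Crygf and Crygs also had no epithelium peak in the gene body. The Crygf locus lay under 1 private fiber peak of 7736 bp at the top 7.48% of the list, the widest private peak of all. Crygs, which encodes gamma S crystallin, had 3 private fiber peaks, the best at the top 42.8%, which covered 19.3% of its body. Crybb2 was covered by 9.99% in fibers and 8.15% in epithelium, and this difference of 1.84 points changed sign under all 3 other settings, to between -3.77 and -1.14 points. Every other gene of the lists had its promoter in both lists or in neither.

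Coverage separated the tissues where presence did not. It is the percentage of a gene body that lies under peaks, a level within 1 list that ranges from 0 to 100, and it was taken for the 19556 coding genes that spanned 1 kb or more. The typical (median) gene was covered by 4.06% in fibers and 2.55% in epithelium. A total of 373 genes (1.91%) had coverage at least 25 percentage points higher in fibers, and 10 genes (0.0511%) at least 25 points higher in epithelium. At 50 points the numbers were 48 (0.245%) and 2 (0.0102%). By any amount, 65.9% of genes were more covered in fibers and 15.3% in epithelium, and the rest were equal in both lists. After both lists were cut to equal numbers of peaks, 329 genes were higher in fibers and 16 in epithelium. That cut did not make peak widths or covered bases equal. The whole lists covered 61.2 Mb in fibers and 38.3 Mb in epithelium, with median peak widths of 298 bp and 226 bp. The 373 genes were short, with a median of 4153 bp against 18934 bp for all genes, and 60 of the 9493 genes of at least 20 kb were among them. Their median coverage was 61.0% in fibers and 22.4% in epithelium, and at P0.5 16.1% and 8.93%. At P0.5, 263 of them (70.5%) were again more covered in fibers, against 36.7% of all genes.

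Crystallin genes held 8 of the 10 largest differences. Crygf went from 0% coverage in epithelium to 100% in fibers, Crybb1 from 3.0% to 100%, Crygb from 3.43% to 100%, Cryba1 from 8.76% to 100%, Cryga from 13.8% to 100% and Crygd from 18.0% to 100%. Cryba4 was covered by 0.664% in epithelium and 93.1% in fibers, and Crygn by 18.3% and 98.0%. The promoters of Crybb1, Cryba1 and Cryba4 were covered in both tissues, and what differed was the body. Nkg7 (0% and 96.3%) starts just downstream of Lim2, and Pgam2 (7.92% and 100%), a phosphoglycerate mutase gene, lay under a fiber peak of 4142 bp that also touched Dbnl. Likewise the Crybb1 body lay under 1 fiber peak of 31780 bp that extended into Tpst2 and held 9 epithelium peaks.

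**Figure D3:**
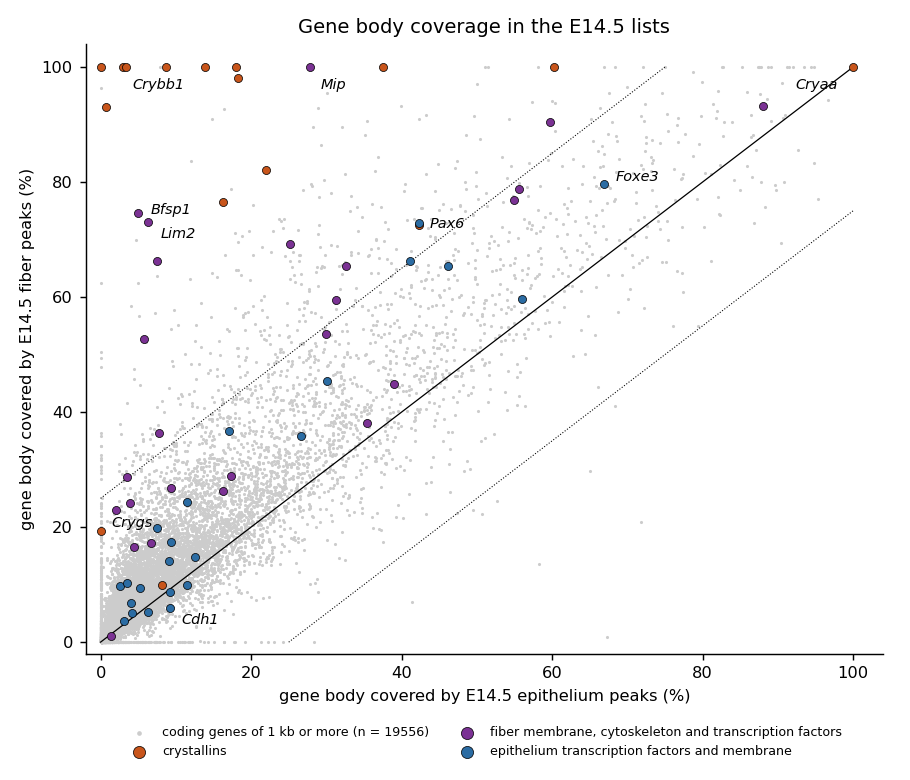
Each point is a coding gene of at least 1 kb, placed by the percentage of its body under E14.5 epithelium peaks (x axis) and E14.5 fiber peaks (y axis), with the solid line at equal coverage and dotted lines at 25 points. Most crystallins gather at the top left, but Cryaa lies at the top right, Crybb3 and Cryab further right, and Crygs and Crybb2 at the lower left. In all, 373 genes lie above the upper dotted line and 10 below the lower one.

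By family, 7 of 8 gamma crystallins, 5 of 6 beta crystallins and 1 of 2 alpha crystallins were at least 25 points more covered in fibers, against 1.91% of all genes. The median gamma crystallin was covered by 100% in fibers and 15.9% in epithelium, and the median beta crystallin by 96.5% and 8.46%. Cryge went from 37.5% to 100%, Crygc from 22.0% to 82.2%, Crybb3 from 60.3% to 100% and Cryba2 from 16.3% to 76.5%. Of the alpha crystallins, chaperones of the small heat shock family, Cryaa was fully covered in both tissues and Cryab by 42.4% in epithelium and 72.5% in fibers. The exceptions were Crygs and Crybb2, given above, and Cryaa.

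Of the genes for the fiber membrane and cytoskeleton, 7 of 8 and 8 of 8 were more covered in fibers, against 65.9% of all genes. The exception was Lctl, a klotho-family gene, with 1.13% in fibers and 1.40% in epithelium. Mip, the lens aquaporin, was covered by 27.8% in epithelium and 100% in fibers under 1 peak of 9371 bp. Lim2, a fiber junction protein, went from 6.32% to 73.1%, the connexin gene Gja3 from 7.76% to 36.4%, and the glucose transporter gene Slc2a1 from 59.7% to 90.5%. In all, 5 of 8 membrane genes passed 25 points, against 1.91% of all genes. Of the 8 cytoskeletal genes 3 did. Bfsp1 and Bfsp2, which encode the beaded-filament proteins, went from 5.01% to 74.7% and from 5.83% to 52.6%, with 25 and 29 private fiber peaks and 0 private epithelium peaks. Sptan1, alpha spectrin, went from 3.56% to 28.7% with 41 private fiber peaks and 2 private epithelium peaks. Its difference of 25.2 points fell short of 25 at a q value under 0.001 (20.7) and with equal numbers of peaks (20.3). Over the 8 cytoskeletal genes, 373 private fiber and 28 private epithelium peaks were called, where all private peaks numbered 61623 and 30716. Ank2 alone, a gene of 577509 bp, held 177 and 20 of those at cytoskeletal genes.

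**Figure D4:**
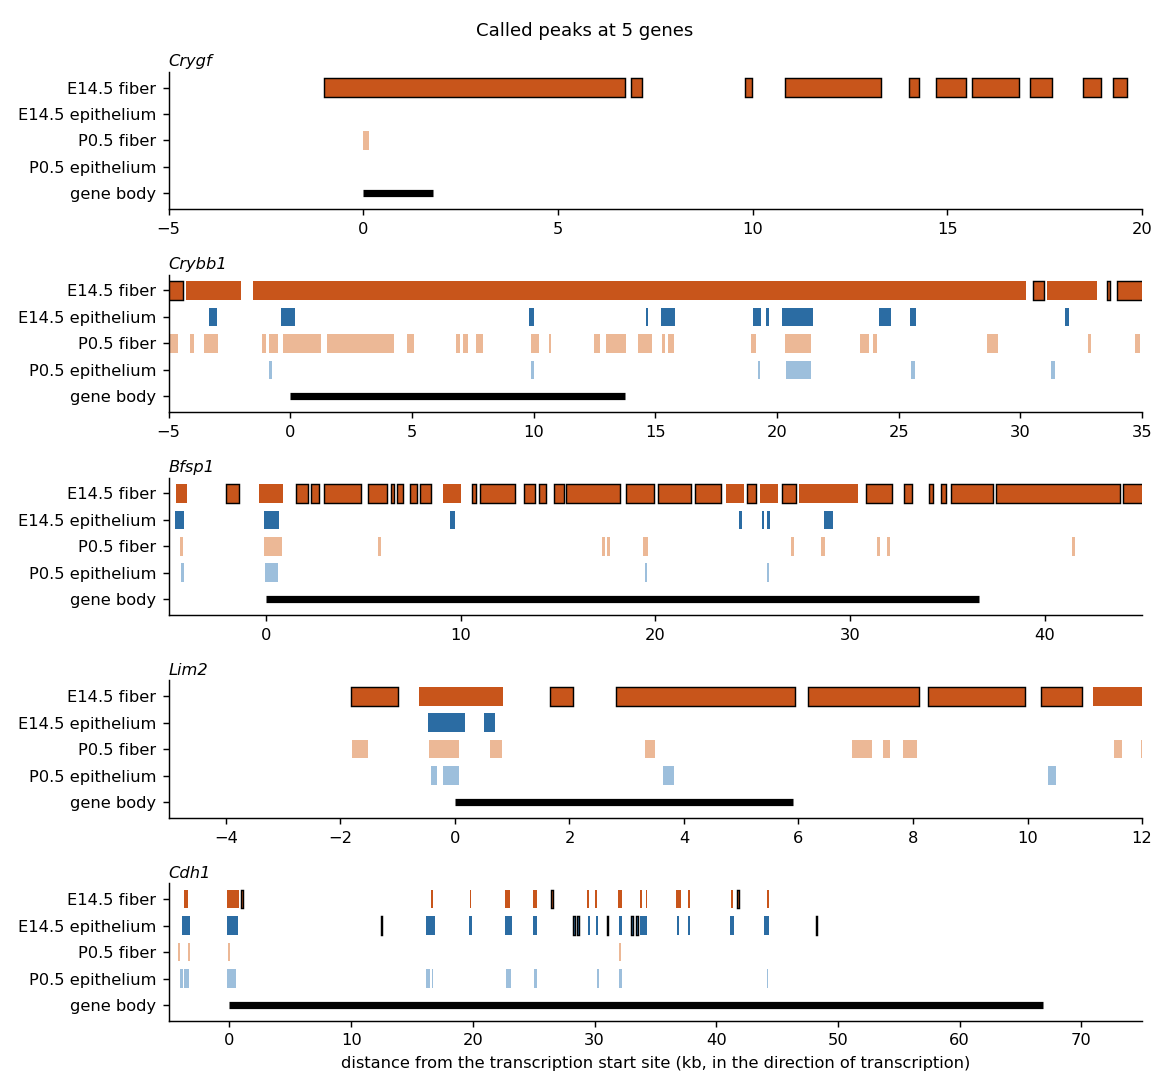
Bars are called peaks of the 4 lists at Crygf, Crybb1, Bfsp1, Lim2 and Cdh1, by distance from the transcription start site in kb in the direction of transcription, and a black outline marks private E14.5 peaks. Fiber peaks cover most of the first 4 gene bodies and epithelium peaks little of them. The wide fiber peak at Crybb1 still holds 9 epithelium peaks. At Cdh1 the 20 epithelium and 17 fiber peaks mostly coincide.

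Regulators of fiber differentiation had peaks in both tissues and more of their bodies covered in fibers. All 9 fiber transcription factor genes had their promoters covered in both tissues and more body coverage in fibers, as 65.9% of all genes had, and 3 passed 25 points, as 1.91% of all genes did. Hsf4, a heat shock factor of fiber maturation, went from 25.1% to 69.2%, Prox1, which drives crystallin genes and elongation, from 32.6% to 65.5%, and Pitx3 from 31.3% to 59.5%. Among genes of RNA binding and organelle loss, Tdrd7, an RNA granule protein whose loss causes cataract, went from 4.42% to 45.7% with 58 private fiber and 0 private epithelium peaks, the RNA-binding proteins Celf1 from 4.85% to 33.0% and Rbm24 from 7.44% to 36.0%. All 10 genes of that list had more coverage in fibers, against 65.9% of all genes, and Dnase2b, the nuclease of nuclear loss, was covered by 3.29% and 0.377%.

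Most genes named for the epithelium were more covered in fibers, as were most coding genes. Of the 15 epithelial transcription factor genes 13 had more coverage in fibers and 2 in epithelium. Of all genes, 65.9% and 15.3% did, and the rest were equal in both lists. In fibers 2 passed 25 points, against 1.91% of all genes: Pax6, from 42.3% to 72.9%, and Six3, from 41.1% to 66.2%. Pax6 had 25 peaks in epithelium and 12 in fibers. Coverage is a different measure from read signal, and the paper reports Pax6 peaks of higher signal in epithelium. The Six3 difference of 25.1 points became 24.3 without the first 2 kb of the gene. None of the 8 epithelial membrane genes passed 25 points in either direction. By any amount 6 were more covered in fibers and 2 in epithelium, and none was equal. Of all genes these shares were 65.9% and 15.3%, and the rest were equal. Cdh1, which encodes E-cadherin, was covered by 9.28% in epithelium and 5.99% in fibers, and it had 7 private epithelium and 3 private fiber peaks. Foxe3, a factor of the lens epithelium, was covered by 67.0% in epithelium and 79.6% in fibers. Of all 21 lists, no gene passed 25 points in epithelium, a count near the background, since 0.0511% of all genes did.

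The marker genes fixed for each tissue followed the labels for fibers and did not set epithelium apart. All 9 fiber markers (Cryga, Crygs, Crybb1, Mip, Lim2, Bfsp1, Bfsp2, Gja3 and Dnase2b) were more covered in fibers, with a median of 73.1% against 5.83%, where 65.9% of all genes were. Of the 6 epithelial markers (Foxe3, Pax6, Cdh1, Tfap2a, Gja1 and Pdgfra), Cdh1 alone was more covered in epithelium, a share near the 15.3% of all genes, and the medians were 31.4% in fibers and 21.3% in epithelium. Promoters of all 6 epithelial markers were covered in both lists, as were those of 7 of the 9 fiber markers, the exceptions being Crygs and Dnase2b.

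Of the signalling lists, the FGF list had the most genes past the threshold in relation to its size. Fgfrl1 went from 28.3% in epithelium to 89.6% in fibers, Fgfr3 from 20.3% to 75.9% and the ERK antagonist gene Spry1 from 29.7% to 65.3%, and all 12 genes had more coverage in fibers, against 65.9% of all genes. For Wnt signalling, 18 of 19 genes had more coverage in fibers, against the same 65.9%, and 3 passed 25 points, namely the antagonist gene Sfrp1 (14.8% to 64.2%) and the ligand genes Wnt7b (25.5% to 67.8%) and Wnt5b (11.8% to 43.1%). In the Notch list, the ligand gene Jag1 went from 31.5% to 68.9% and the target gene Hey1 from 36.1% to 76.1%, and 2 of 11 genes passed. The Hey1 difference of 40.1 points became 20.4 without the first 2 kb of the gene. Id2, a target of BMP signals, went from 25.2% to 63.1% and was 1 of 15. Of 16 capsule matrix genes, Col4a1, a collagen IV chain, went from 17.2% to 44.5%, a difference that became 24.8 points with equal numbers of peaks. None of the 8 cell cycle exit genes or the 19 proliferation genes passed 25 points. All counts of these lists stand against 1.91% of all genes in fibers, and 0 is near that background. The median proliferation gene was covered by 9.27% in fibers and 6.20% in epithelium.

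**Figure D5:**
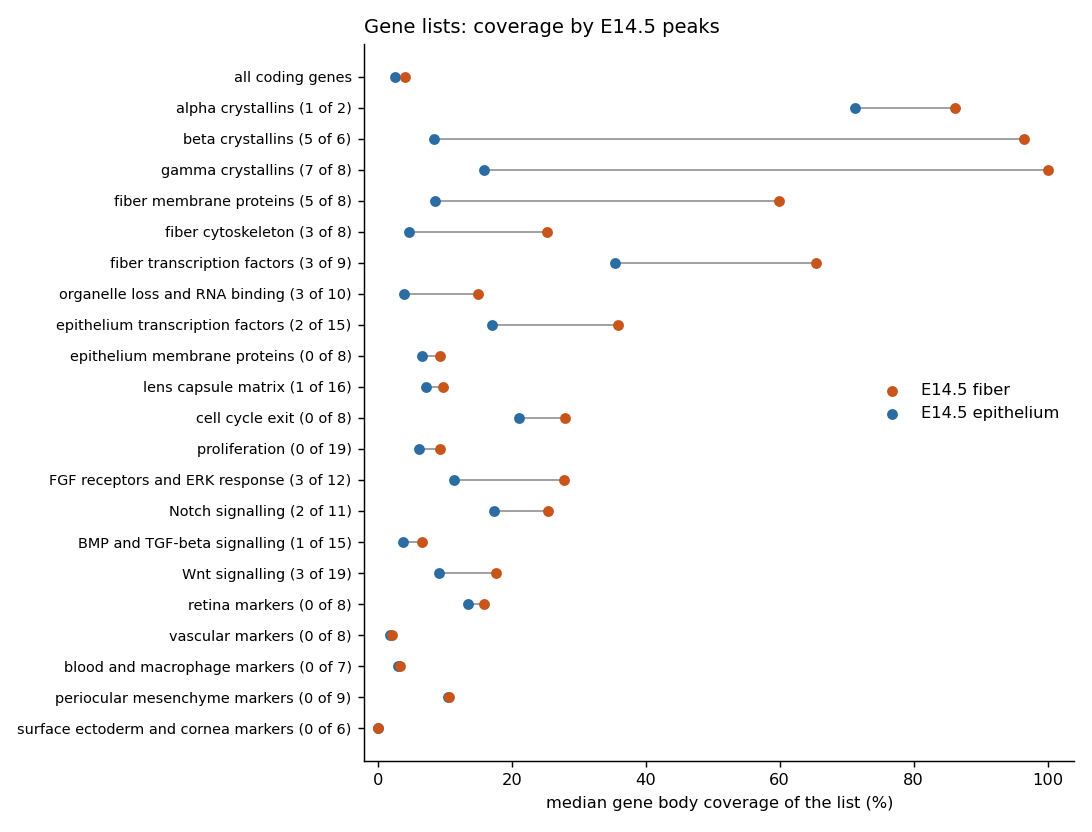
Points give the median gene body coverage (%) of each gene list by E14.5 fiber and E14.5 epithelium peaks, and numbers in parentheses count the genes at least 25 points more covered in fibers. Gamma and beta crystallins show the widest gaps, at 100% against 15.9% and 96.5% against 8.46%, and the points of the vascular, blood, mesenchyme and surface ectoderm lists nearly coincide.

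The 10 genes more covered in epithelium were Rxfp4, Islr, Egfl8, Gm48552, Bricd5, Ppp1r27, Rnf133, Car15, Cenpx and Pnpla2, all between 1158 and 5556 bp long. Rxfp4, a relaxin-family receptor gene, was covered by 67.2% in epithelium and 0.964% in fibers, and Islr by 71.8% and 21.0%. Ppp1r27 had 28.4% in epithelium and 0% in fibers. Egfl8 was covered by 58.3% in epithelium and 13.5% in fibers. At a q value under 0.001 in both lists, the differences of Ppp1r27, Rnf133 and Pnpla2, where negative values are higher in epithelium, fell short of 25 points at -17.2, -17.5 and -24.7. None belongs to a lens gene list, and 6 of the 10 were more covered in fibers at P0.5, where 36.7% of all genes were.

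Markers of other cells that dissection could carry over were measured beside these genes. None of the 38 genes of the 5 lists passed 25 points, which is near the background of 1.91% of all genes in fibers and 0.0511% in epithelium. The median differences were 4.16 points for retina, 0.369 for vascular, 0 for blood and macrophage, -0.0146 for periocular mesenchyme and 0 for surface ectoderm and cornea, where positive values are higher in fibers. Peaks at retina markers numbered 47 in fibers, 32 of them at Mitf, and 17 in epithelium, 1 of them at Mitf. They numbered at vascular markers 29 and 38, at blood and macrophage markers 16 and 24, at mesenchyme markers 40 and 38, and at surface ectoderm markers 8 and 10. Of these 38 genes, 5 (Gata1, Itgam, Tyr, Krt5 and Krt12) had no peak in either list, and the other 33 had peaks in both. Among them were the macrophage receptor gene Csf1r, with 3 peaks in fibers and 4 in epithelium, and the surface ectoderm factor gene Grhl3, with 5 in each. The part of such cells in the private peaks was not tested.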

How the data were processed

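ATAC-seq was run on 8 libraries, 2 in each of 4 groups of tissue and stage, and each sample was placed in its group by its title. The authors trimmed reads with Trim Galore 0.4.1, mapped them to mm10 with Bowtie2 2.3.3.1, filtered them with SAMtools 1.2 and Picard 2.1.1, combined both libraries of a group and ran MACS2 2.1 on them with a q value of 0.05 as the limit. The paper itself describes peak calls for each sample that were merged afterwards, whereas the deposited lists used here are named as pooled. The deposited fold enrichment is the ratio of reads at a summit to the background that MACS2 expects there. It ranked peaks within a list, with ties sharing a rank. The −log10 p and the −log10 q, as deposited for each summit, served for equal numbers of peaks and for the q value of 0.001. The deposited peak score, made by the authors from the −log10 q value, was not used. The lists hold no reads, 0 columns stayed unassigned, and no columns of comparisons were present.

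Peaks on scaffolds, 82 of the epithelium and 57 of the fiber list, were left out, and 0 peaks passed a chromosome end of GRCm38. Overlaps, coverage and motif shares were computed with python 3.11.15, numpy 2.4.6, pandas 2.3.3 and pysam 0.24.0 with 26180 genes of RefSeq (45756 curated transcripts). A peak was assigned in the order promoter (2 kb), gene body, distal (50 kb) and intergenic. Motifs, 22 in all, were searched on both strands in 200 bp at the summit. No blacklist was applied here. On simulated data, 100% of 4000 intervals gave the overlaps and covered bases of bedtools 2.31.1, and all of 2000 windows with or without a planted motif were sorted correctly.

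With 1 pooled list for each group no replicate test was made, and lists were described by counts, shares with Wilson intervals and medians. Named were genes of 21 fixed lists that were covered in 1 list only or differed by 25 points, all crystallins, the 10 genes with the largest coverage difference in each direction, the genes at the 10 highest-ranked private peaks, and the 10 genes with the most private peaks. The tissue markers were fixed too. The values of 1 further gene are not reported here. Marker genes of other cells, Lctl, Dbnl and Tpst2 were named after their values were seen. The comparison, its members and the lists were chosen with earlier results of these data known. Alternatives were other q values, equal peak numbers, other overlaps, distances, promoter widths, transcripts, gene parts, thresholds and motif windows. Leaving out mostly repetitive windows, joined cores and counts of cores were added after seeing the data.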

Additional observations from a re-analysis of the deposited data

Results flagged for a closer look

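Of the 42 named genes that were at least 25 points more covered in fibers at E14.5, 9 had the opposite order at P0.5, with lower coverage in fibers. Over all 373 such genes 87 (23.3%) did, and 42.4% of all genes were more covered in epithelium at P0.5. A further 6 of the 10 genes more covered in epithelium at E14.5 were more covered in fibers at P0.5, as were 36.7% of all genes. In each case the difference between the stages was not tested, because each stage has 1 pooled list per tissue, and the P0.5 lists are shorter.

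Sfrp1, a Wnt antagonist gene, was 49.4 points more covered in fibers at E14.5 and had 4.63% in fibers and 5.59% in epithelium at P0.5. Hey1 was 40.1 points higher in E14.5 fibers, with 24.0% in fibers and 29.6% in epithelium at P0.5. Id2 was 38.0 points higher in E14.5 fibers and had the widest opposite gap at P0.5, 8.59% against 20.6%. Jag1 was 37.4 points higher at E14.5, with 5.39% in fibers and 12.6% in epithelium at P0.5. Prox1 was 32.9 points higher at E14.5 and stood at 4.94% against 7.76% at P0.5. Wnt5b, at 31.4 points, had 5.57% and 6.04% at P0.5, and Pax6, at 30.6 points, 16.1% and 17.2%. Cryab, at 30.1 points, had 17.8% in fibers and 20.5% in epithelium at P0.5, and Col4a1, at 27.3 points, 2.64% and 4.31%.

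Among the genes more covered in E14.5 epithelium, where a negative difference is higher in epithelium, Egfl8 differed by -44.7 points and had 11.0% in fibers and 0% in epithelium at P0.5. Gm48552 differed by -35.3 points and had 23.1% and 0% at P0.5, and Bricd5 by -34.4 points with 28.6% and 0%. Car15 differed by -28.1 points, with 6.53% in fibers and 0% in epithelium at P0.5. Cenpx, at -27.3 points, had 31.5% and 29.6% at P0.5, and Pnpla2, at -26.5 points, 19.9% and 14.3%.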

How the results depend on the processing

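No paired analysis was possible because the libraries of a group were pooled before peaks were called and the lists carry no replicate, so leaving out a replicate was not possible either.

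The private share was higher in fibers than in epithelium under every alternative run, at 43.5% and 29.0% with a q value under 0.001 in both lists, 41.4% and 34.0% with equal numbers of peaks, 67.3% and 59.5% with an overlap of 50% of both peaks, 42.0% and 23.8% with no peak of the other list within 500 bp, and 41.2% and 25.9% with a q value under 0.001 in the own list and no call in the other. The number of private epithelium peaks became 59483 with the overlap of 50%. Without the first 2 kb, gene bodies covered in 1 list numbered 2049 for fibers and 847 for epithelium, and the cause was not tested. At 50 points, 48 genes were more covered in fibers and 2 in epithelium, and with equal numbers of peaks 16 in epithelium.

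In 100 bp windows the Maf shares were 17.0% in private fiber and 11.0% in private epithelium peaks and the Tead shares 6.12% and 11.1%, as shorter windows hold fewer letters. Outside promoters, 27.6% of private fiber peaks held a Maf core and 19.1% of private epithelium peaks a Tead core. In the strongest 20% of private peaks these shares were 38.0% and 28.0%. Of the 147 coverage differences of named genes under other settings, 138 stayed on their side of 25 points and 9 crossed it, 2 for Sptan1 and 1 each for Col4a1, Hey1, Pnpla2, Ppp1r27, Prkag2, Rnf133 and Six3. Of the 147, 3 changed sign, all for Crybb2. The lists hold no reads, so depth per tissue, which bears on how many weak peaks are called, was not analysed here.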

Other observations

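Among the 9493 coding genes of at least 20 kb, a cut set after the data were seen, 60 were at least 25 points more covered in fibers and 0 in epithelium. After Bfsp1 (69.7 points), the 9 largest differences belonged to Tpst2 (65.2 points), Ndrg1 (57.5), Slc7a5 (57.4), Ptpru (51.9), Cotl1 (51.7), Timeless (51.5), Capn3 (50.1), Sfrp1 (49.4) and Wdr1 (47.9). Ndrg1, a stress-responsive gene, was covered by 4.94% in epithelium and 62.5% in fibers, with 27 private fiber and 0 private epithelium peaks. Capn3 encodes a calpain protease with lens isoforms, and its body of 41327 bp was covered by 7.17% and 57.3%, with 19 private fiber and 0 private epithelium peaks. Slc7a5, a transporter of large neutral amino acids, was covered by 32.1% in epithelium and 89.5% in fibers. Cotl1 and Wdr1 encode proteins that act on actin filaments, and they were covered by 27.9% and 9.77% in epithelium and by 79.6% and 57.7% in fibers. Tpst2 adjoins Crybb1 and shared its wide peak, and Timeless starts 251 bp beyond the end of Mip.

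In the other direction the largest differences of long genes were smaller. Ints1, a subunit of the Integrator complex, was covered by 17.6% in epithelium and 4.97% in fibers, with 13 private epithelium and 0 private fiber peaks. Stra6, the receptor for retinol-binding protein, was covered by 18.5% in epithelium and 11.9% in fibers, with 5 private epithelium and 1 private fiber peaks. These genes were chosen after their values were seen.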
